A study of Mus musculus with 12 samples.

Results

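The genes described here are 10 markers and effectors of natural killer (NK) cells and cytotoxic T cells, namely Ncr1, Klrb1c, Klrk1, Klrd1, Nkg7, Gzma, Gzmb, Prf1, Eomes and Ifng. They were chosen by name through the symbol column of the deposited tables and are 10 of the 21960 genes listed for each tumor. Each symbol matched 1 Ensembl gene. RNA sequencing had been performed on mammary tumors of female C57BL/6 mice in which the MMTV promoter drives the polyoma middle T oncoprotein (PyMT) in the mammary epithelium. The 12 tumors fall into 4 treatment groups of 3, with 1 tumor per library. IgG1 tumors received a control antibody and anti-PD-1 tumors the antibody 4H2 against the checkpoint receptor PD-1, at 20 mg/kg at first and 10 mg/kg later until day 18, beginning when the first tumor of the mouse measured 0.6 cm across. DOX/IgG1 and DOX/anti-PD-1 tumors received 5 mg/kg doxorubicin every week for 5 weeks, each dose followed the next day by 10 mg/kg of the same antibodies, beginning at 1 cm. Doxorubicin is therefore bound up with the starting size, the first antibody dose and the schedule. Their effects cannot be told apart in any comparison between the arms. The sample labels give 5 weeks for all 12 tumors, also for those whose antibody ended on day 18. Each library holds the RNA of a whole tumor, and in such data fewer cells of a type and less RNA per cell cannot be told apart.

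NK cells read a balance of activating and inhibitory receptors on their surface, among them NKp46 (Ncr1), NK1.1 (Klrb1c), NKG2D (Klrk1) and CD94 (Klrd1). Once activated, NK cells and cytotoxic T cells release granules in which perforin (Prf1) opens the target cell membrane for the granzymes (Gzma, Gzmb), and they secrete interferon gamma (Ifng), which acts on tumor cells and macrophages. Apart from Ncr1 and Klrb1c, most of these genes are also transcribed in activated T cells, and PD-1 is an inhibitory receptor of such cells.

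The values are TPM, the abundance of a gene's transcripts relative to the total of its library, recovered from the log2(TPM + 1) values that the authors deposited. Of the 120 values of the 10 genes, 45 are listed at 0, 17 lie above 0 and under 1 TPM, 58 are at 1 TPM or more, and 8 of these exceed 10 TPM. The IgG1 tumors hold 13 of the values at 0, the anti-PD-1 tumors 9, the DOX/IgG1 tumors 9 and the DOX/anti-PD-1 tumors 14, of 30 in each group. Only Klrk1 is above 0 in all 12 tumors. The number of reads behind a value is unknown, so a gene listed at 0 may have been transcribed below what a library could show.

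The number of these genes at 0 varied between tumors of the same group. DOX/anti-PD-1 replicate 3 lists 7 of the 10 at 0, DOX/IgG1 replicate 1, DOX/anti-PD-1 replicate 1 and IgG1 replicate 3 list 5, and DOX/IgG1 replicate 3 lists 1. Detection of all genes differed as well. DOX/IgG1 replicate 1 has the fewest genes above 0, 13856, and anti-PD-1 replicate 3 the most, 15426. Genes that are abundant elsewhere were affected too: of the 9156 genes with a median of at least 10 TPM over the 12 tumors, 42 are listed at 0 in DOX/anti-PD-1 replicate 3, 34 in DOX/IgG1 replicate 1 and 5 to 23 in each of the other 10 tumors. These 2 libraries also have the lowest median correlation with the other 11, with Pearson's r of 0.944 and 0.94 across genes. They stand apart from the rest, and fold changes among the 10 genes are given below with and without them. Counts of groups that do not overlap were repeated without DOX/IgG1 replicate 1 but not without DOX/anti-PD-1 replicate 3. Fold changes of single genes outside the 10 were fitted with all tumors of a comparison only. In the deposited tables the column of DOX/IgG1 replicate 1 is the only 1 with the word test in its name, and the columns of the 3 DOX/anti-PD-1 tumors end in another number than the other 9. Neither is explained, so a difference in processing cannot be told apart from treatment there.

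**Figure D1:**
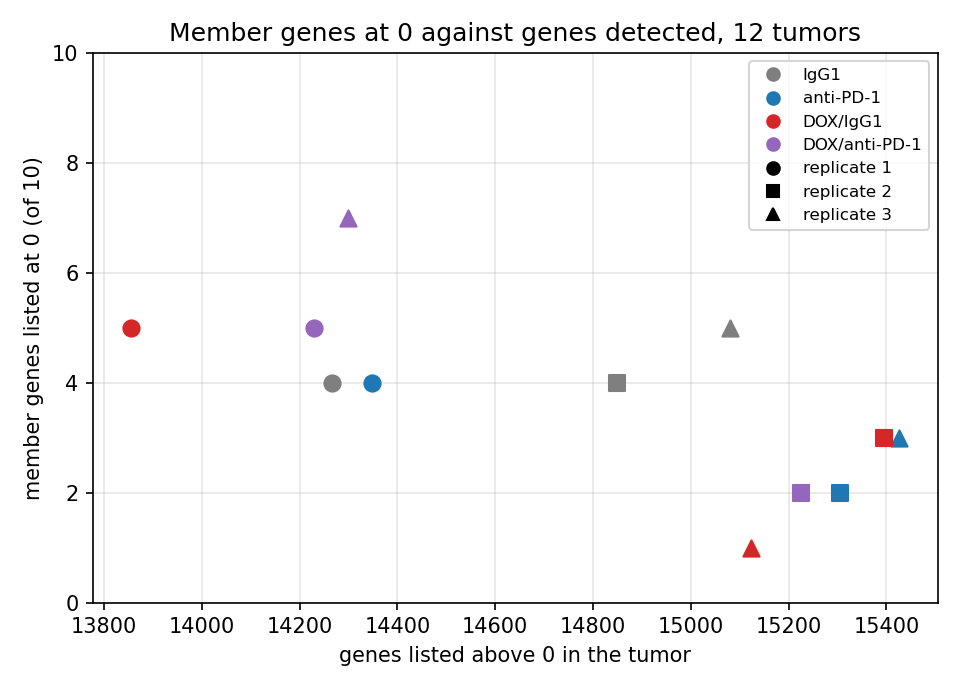
Each point is 1 tumor. The horizontal axis gives the number of genes listed above 0 and the vertical axis the number of the 10 NK and cytotoxic genes listed at 0; color marks the treatment group and shape the replicate. The tumors with the most of the 10 genes at 0 include DOX/anti-PD-1 replicate 3 with 7, and the tumor with the fewest genes above 0, DOX/IgG1 replicate 1 with 13856, lists 5 of the 10 at 0.

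The labelled tissue carried its markers. The 6 epithelial markers (Epcam, Krt8, Krt18, Cdh1, Erbb3 and Esrp1) summed to between 1481 and 2789 TPM per tumor. The 6 markers shared by all leukocytes summed to between 130 and 307 TPM, with Ptprc, which encodes CD45, the most abundant in every tumor. Against this level the 10 NK and cytotoxic genes together made up little: 17.3, 17.1 and 11.5 TPM in the IgG1 tumors, 12.0, 19.4 and 29.0 TPM in the anti-PD-1 tumors, 11.4, 60.7 and 61.9 TPM in the DOX/IgG1 tumors, and 18.6, 34.5 and 22.6 TPM in the DOX/anti-PD-1 tumors, in the order of replicates 1, 2 and 3, which is kept below. DOX/IgG1 replicates 2 and 3 have the highest sums of the 12 tumors and DOX/IgG1 replicate 1 the lowest.

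The 3 lectin-like receptors among the 10 genes lie on chromosome 6 in the NK gene complex (GRCm38 coordinates). Klrb1c is at chr6:128778485-128789215 on the minus strand, Klrk1 at chr6:129610323-129623864 on the minus strand and Klrd1 at chr6:129591782-129598775 on the plus strand. Ncr1 at chr7:4337724-4345164 and Nkg7 at chr7:43437073-43438249 share chromosome 7, and Prf1 at chr10:61297833-61304680 and Ifng at chr10:118441046-118445892 share chromosome 10. Gzma is at chr13:113093825-113100981, Gzmb at chr14:56258838-56262260 and Eomes at chr9:118478212-118486132. Klrb1c overlaps the gene model Gm44511 and Ifng the gene model Gm49751, each on its own strand, and Eomes overlaps Gm33460 on the other strand. Klrb1c and Gzmb have close relatives with which short reads may be shared.

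RefSeq promoters (GRCm38.p6, 250 bases before to 50 after the start) were given for 9 of the 10 genes and were searched on both strands for motifs of factors known in cytotoxic lymphocytes, of which 3 are given here. The T-box site GGTGTGA, which T-bet and Eomes bind, occurs in a promoter of 4.6% of 27025 genes and in that of Nkg7. The RUNX site TGTGGTT occurs in those of 6.09% of all genes and in those of Ncr1, Klrk1, Gzma and Gzmb, 4 of the 9. NFAT GGAAAA occurs in those of 26.1% of all genes and in that of Gzma. A match is a description of the letters only. The stretches with the T-box and RUNX matches are shown; the capitals mark the match, which in Gzma reads as its reverse complement. They were picked after the matches had been counted.
Ncr1, chr7:4337523-4337561, plus strand: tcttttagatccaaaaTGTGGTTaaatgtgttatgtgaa
Klrk1, chr6:129623971-129624009, minus strand: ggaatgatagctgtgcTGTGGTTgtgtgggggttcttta
Gzma, chr13:113101010-113101048, minus strand: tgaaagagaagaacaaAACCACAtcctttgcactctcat
Gzmb, chr14:56262346-56262384, minus strand: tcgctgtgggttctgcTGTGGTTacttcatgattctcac
Nkg7, chr7:43437109-43437147, plus strand: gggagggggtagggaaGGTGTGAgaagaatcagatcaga

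Among the receptors, Klrd1 had the highest mean level of the 10 genes, 7.88 TPM. CD94, its product, pairs with NKG2A or NKG2C to read a nonclassical MHC molecule. Klrd1 stood at 0, 5.75 and 3.97 TPM in the IgG1 tumors, at 3.06, 4.83 and 11.0 TPM in the anti-PD-1 tumors, at 0, 17.4 and 22.1 TPM in the DOX/IgG1 tumors and at 3.86, 9.1 and 13.5 TPM in the DOX/anti-PD-1 tumors. The highest values are those of DOX/IgG1 replicates 2 and 3, and replicate 1 of that group is at 0, as is IgG1 replicate 1. All 4 groups overlap.

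Klrk1 encodes NKG2D, the activating receptor for stress-induced ligands on damaged or transformed cells. It stood at 0.4, 3.52 and 2.28 TPM in the IgG1 tumors, at 1, 1.15 and 4.26 TPM in the anti-PD-1 tumors, at 0.7, 9.01 and 11.9 TPM in the DOX/IgG1 tumors and at 1.9, 4.08 and 8.12 TPM in the DOX/anti-PD-1 tumors. The order of the tumors is close to that of Klrd1: DOX/IgG1 replicates 2 and 3 are the highest, followed by DOX/anti-PD-1 replicate 3, and IgG1 replicate 1 and DOX/IgG1 replicate 1 are the lowest. The groups overlap.

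Klrb1c and Ncr1 are the 2 receptors most restricted to NK cells and their innate relatives, and both are low. Klrb1c stood at 3.94, 0.61 and 0 TPM in the IgG1 tumors, at 0, 0.47 and 3.56 TPM in the anti-PD-1 tumors, at 4.02, 5.25 and 2.34 TPM in the DOX/IgG1 tumors and at 0, 2.85 and 1.03 TPM in the DOX/anti-PD-1 tumors. DOX/IgG1 is the group with no tumor at 0 for this gene, but IgG1 replicate 1, anti-PD-1 replicate 3 and DOX/anti-PD-1 replicate 2 lie within its range. Ncr1 stood at 1.84, 0.7 and 0 TPM in the IgG1 tumors, at 0, 1.3 and 0 TPM in the anti-PD-1 tumors, at 0, 4.05 and 0.7 TPM in the DOX/IgG1 tumors and at 1.29, 1.66 and 0 TPM in the DOX/anti-PD-1 tumors. Every group has at least 1 tumor at 0 for Ncr1. The highest value is again in DOX/IgG1 replicate 2.

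Of the granule genes, Gzma had the highest mean, 5.43 TPM. Granzyme A is a trypsin-like serine protease of NK cells and T cells. Gzma stood at 4.77, 0 and 2.5 TPM in the IgG1 tumors, at 1.95, 5.25 and 6.07 TPM in the anti-PD-1 tumors, at 2.7, 19.0 and 13.3 TPM in the DOX/IgG1 tumors and at 0, 9.58 and 0 TPM in the DOX/anti-PD-1 tumors. DOX/IgG1 replicates 2 and 3 are the highest of the 12, replicate 1 of that group lies among the IgG1 values, and 2 of the 3 DOX/anti-PD-1 tumors are listed at 0.

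Gzmb, the gene of granzyme B, a protease that cleaves after aspartate and activates caspases, lay in a similar range in 3 of the groups. It stood at 5.71, 4.34 and 2.24 TPM in the IgG1 tumors, at 4.67, 4.94 and 2.42 TPM in the anti-PD-1 tumors, at 3.24, 5.39 and 3.62 TPM in the DOX/IgG1 tumors and at 10.7, 4.01 and 0 TPM in the DOX/anti-PD-1 tumors. DOX/anti-PD-1 holds both the highest value and the 1 tumor at 0. Gzmb did not share the high values of Gzma in DOX/IgG1 replicates 2 and 3.

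Nkg7, a granule membrane protein needed for granule release, and Prf1 were near the limit of what the libraries show. Nkg7 is above 0 in 5 of 12 tumors, at 2.15 TPM in IgG1 replicate 2, 0.98 and 0.67 TPM in anti-PD-1 replicates 2 and 3, 3.17 TPM in DOX/IgG1 replicate 3 and 1.7 TPM in DOX/anti-PD-1 replicate 2. Prf1 is above 0 in 6 tumors, at 0.65 and 0.51 TPM in IgG1 replicates 1 and 3, 0.79 TPM in anti-PD-1 replicate 1, 0.49 TPM in DOX/IgG1 replicate 3 and 0.91 and 1.56 TPM in DOX/anti-PD-1 replicates 1 and 2. Every group has tumors with and without each of these 2 genes, and 1 tumor reaches 1 TPM of Prf1.

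Eomes, a T-box transcription factor of mature NK cells and CD8+ T cells, is listed at 0 in 8 tumors. It stood at 0.56 and 1.03 TPM in anti-PD-1 replicates 1 and 3 and at 0.78 and 0.58 TPM in DOX/IgG1 replicates 1 and 2, and all 3 IgG1 and all 3 DOX/anti-PD-1 tumors are at 0. Ifng is listed at 0 in 10 tumors. Anti-PD-1 replicate 2 has 0.53 TPM and DOX/IgG1 replicate 3 has 4.29 TPM of Ifng. No fold change is given for these 2 genes, since every pair of groups compared below includes 1 in which all 3 tumors are at 0.

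**Figure D2:**
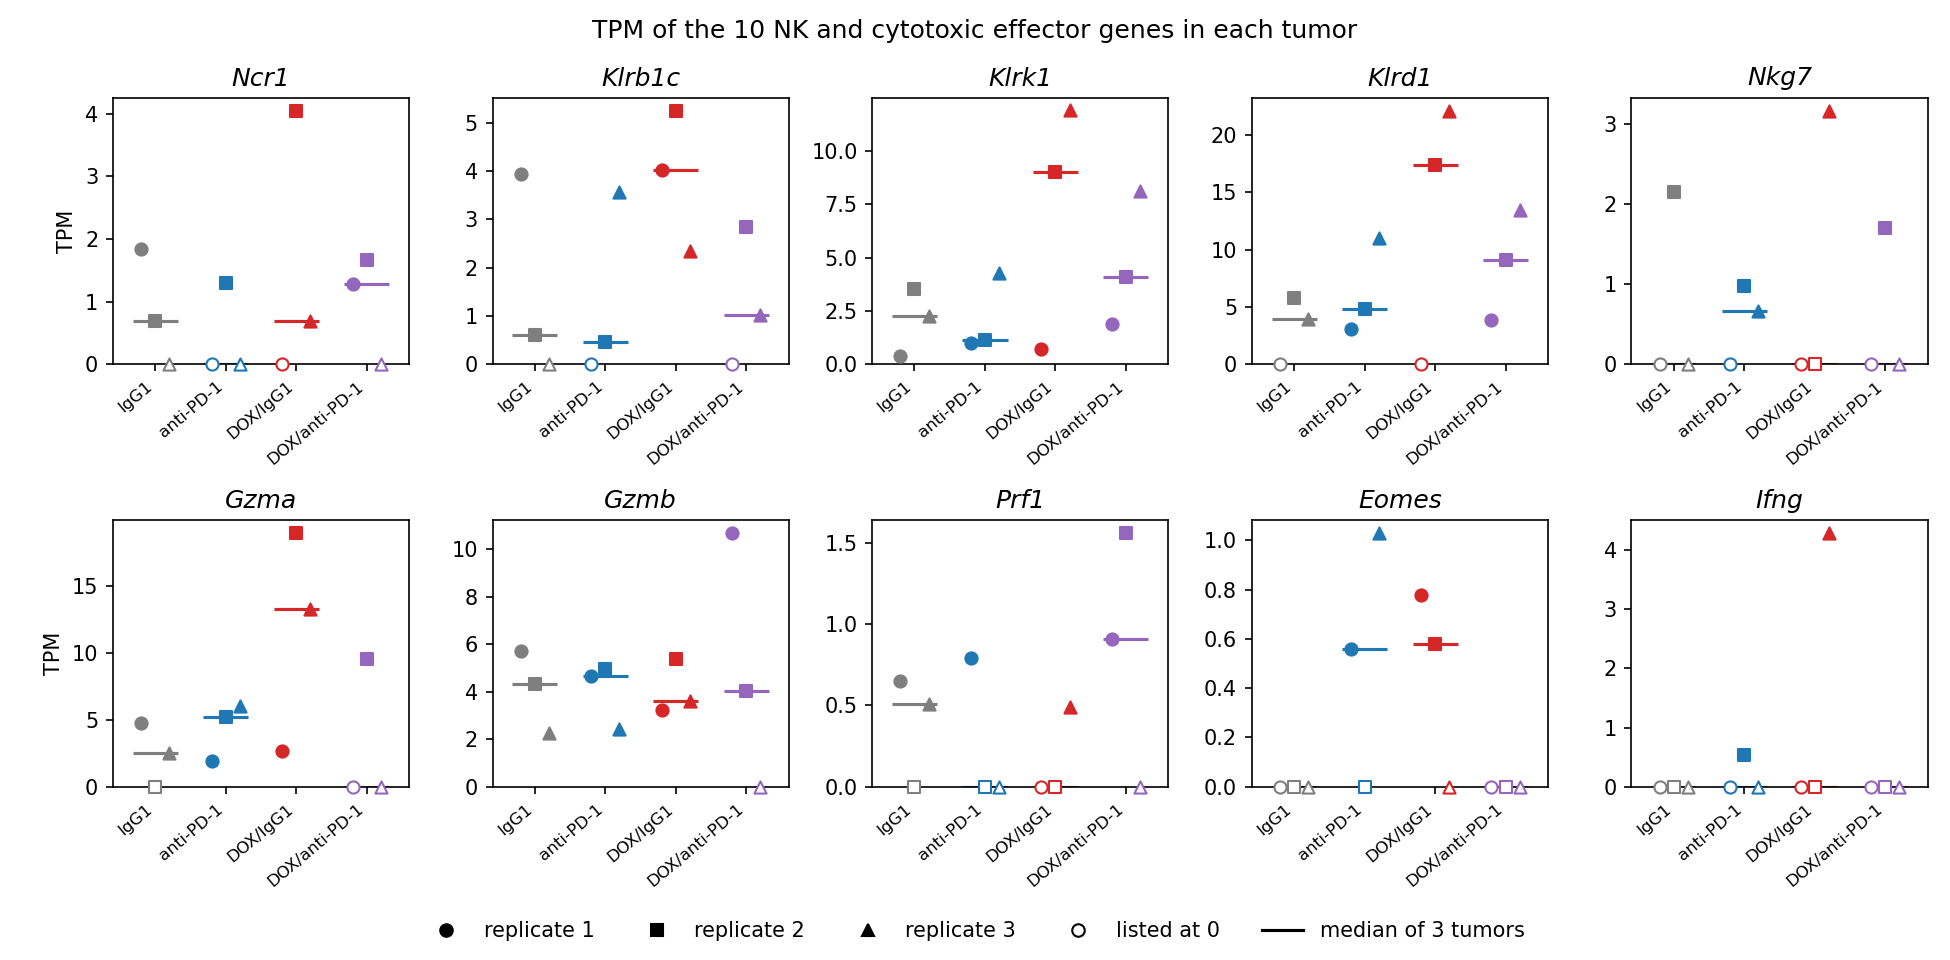
TPM of each of the 10 genes in the 12 tumors, 1 panel per gene, each with its own vertical axis from 0. Symbols mark the replicates, open symbols values listed at 0, and lines the median of the 3 tumors of a group. DOX/IgG1 replicates 2 and 3 are the highest tumors for Klrk1, Klrd1 and Gzma, and DOX/IgG1 replicate 1 is among the lowest for Klrk1 and Klrd1.

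The groups were compared with limma on log2(TPM + 1) over all genes at 1 TPM or more in at least 3 of the tumors fitted. A gene was called when its adjusted p was under 0.1 and its log2 fold change exceeded 1 in either direction. Fold changes on this scale understate the change of genes near 1 TPM. A two-sided exact permutation test over tumors was run for each of the 10 genes; with 3 tumors against 3 it has 20 assignments and cannot go below p = 0.1. The question was whether blocking PD-1 or giving doxorubicin, each with and without the other, altered the transcripts of cytotoxic lymphocytes in the tumor. DOX/anti-PD-1 tumors were not compared directly with IgG1 tumors. None of the 10 genes was called in any of the 7 comparisons. Genes below the filter could not be called: 4 to 7 of the 10 were tested in each comparison, and Prf1, Eomes and Ifng in none. With no filter all 10 were tested and 0 were called.

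Doxorubicin in IgG1-treated mice is read from the DOX/IgG1 and IgG1 tumors. Between them the log2 fold change was 1.90 for Gzma (SE 0.81, 95% interval 0.07 to 3.74), 1.24 for Klrb1c (SE 0.65), 1.22 for Klrd1 (SE 1.20) and 1.13 for Klrk1 (SE 0.81). Gzmb had 0.04 (SE 0.45). The lowest adjusted p by limma was that of Gzma, 0.629, and the lowest exact permutation p was 0.2, for Gzma and Klrb1c. In this comparison 5 of the 10 genes passed the filter, 0 were called, 1 had an unadjusted p below 0.05 and 0 had groups that did not overlap. Over all 13874 genes tested by limma, 0.036% were called (5 genes, of which Bpifa2 and Smr3a are salivary gland genes), 7.73% had an unadjusted p below 0.05 and 14% had groups that did not overlap. The unadjusted p of Gzma, 0.0435, did not hold: it was 0.0625 after scaling by the median of ratios and 0.0612 with all 12 tumors in 1 fit. The median difference was 0.65 over the 10 genes and 0.12 over all genes tested. Here and in the comparisons below, the median of the 10 includes genes that did not pass the filter, among them Eomes and Ifng. Without the filter the median over 16985 genes was also 0.12. After scaling by the median of ratios the medians over the 10 genes and over all genes tested became 0.63 and 0.01.

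For Klrd1, Gzma and Klrk1 these differences are larger without DOX/IgG1 replicate 1. Then the log2 fold change between DOX/IgG1 and IgG1 tumors was 2.68 for Klrd1 (SE 0.76, adjusted p by limma 0.197), 2.63 for Gzma (SE 0.71, adjusted p 0.184) and 2.05 for Klrk1 (SE 0.57, adjusted p 0.192). These 3 of the 5 genes tested then did not overlap between the groups, as did 32.6% of all 13874 genes; 2 tumors against 3 are separated more easily than 3 against 3. Leaving out other tumors moved the differences both ways, with ranges over all single tumors of 0.38 to 2.68 for Klrd1, 0.59 to 2.05 for Klrk1 and 1.18 to 2.63 for Gzma. Klrb1c ran from 0.74, without IgG1 replicate 3, to 1.89, without IgG1 replicate 1 (unadjusted limma p 0.0130, adjusted p 0.649). Klrd1 was lowest without IgG1 replicate 1, Klrk1 without DOX/IgG1 replicate 3 and Gzma without IgG1 replicate 2. None of the 3 was called without DOX/IgG1 replicate 1, while 113 of all 13664 genes tested were called without this library, against 5 with it.

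With anti-PD-1 present, Klrk1, Ncr1 and Klrd1 again had higher means with doxorubicin but Gzma a lower one. In DOX/anti-PD-1 tumors relative to anti-PD-1 tumors the log2 fold change was 0.86 for Klrk1 (SE 0.58), 0.47 for Ncr1 (SE 0.62), 0.44 for Klrd1 (SE 0.54), 0.07 for Klrb1c (SE 0.73) and -1.21 for Gzma (SE 0.88). With single tumors left out Klrk1 ran from 0.44 to 1.30, Ncr1 from 0.20 to 0.90, Klrd1 from 0.09 to 0.88 and Klrb1c from -0.40 to 0.71. The lowest adjusted p by limma was 0.698 and the lowest exact permutation p was 0.3. Here 6 of the 10 genes passed the filter, 0 were called, 0 had an unadjusted p below 0.05 and 0 had groups that did not overlap, against 0%, 8.63% and 14.9% of the 13736 genes tested by limma. The median difference was -0.01 over the 10 genes and 0.11 over all genes tested. Without DOX/anti-PD-1 replicate 3, in which Gzma and Gzmb are both at 0, the log2 fold change of Gzmb turned from -0.33 to 0.65 and that of Gzma went from -1.21 to -0.64. Without DOX/anti-PD-1 replicate 2, the 1 tumor of its group with Gzma above 0, Gzma had -2.34 (unadjusted limma p 0.00345, adjusted p 0.351). The group then holds 2 tumors at 0 and no spread, so the small unadjusted p cannot be read.

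Taking both antibodies together in a fit with antibody and doxorubicin as terms set 6 tumors against 6. Klrk1 had a log2 fold change of 1.00 with doxorubicin (SE 0.51, limma adjusted p 0.465), Klrd1 0.83 (SE 0.71) and Klrb1c 0.66 (SE 0.51). For Klrk1 the exact permutation p within antibody strata was 0.13, the lowest of the 10, where 400 assignments allow 0.005. Of the 7 genes that passed the filter 0 were called and 0 had an unadjusted p below 0.05, against 0.0204% and 12% of the 14735 genes tested by limma. The median was 0.32 over the 10 genes and 0.12 over all genes tested. With single tumors left out Klrk1 ran from 0.74 to 1.39, Klrd1 from 0.41 to 1.43 and Klrb1c from 0.37 to 1.00, and with a replicate block the unadjusted p of Klrk1 by limma went from 0.0724 to 0.0144. Without DOX/IgG1 replicate 1 Klrk1 had 1.39 (SE 0.44, adjusted p 0.157), the lowest adjusted p of any of the 10 genes under any setting tried, and 211 of all genes were called where 3 had been. Without this library and DOX/anti-PD-1 replicate 3, a setting chosen after the values were seen, Klrk1 had 1.24 (SE 0.47) and 109 of all genes were called.

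PD-1 blockade without chemotherapy was compared between anti-PD-1 and IgG1 tumors. The log2 fold change was 1.03 for Klrd1 (SE 0.71), 0.90 for Gzma (SE 0.65), 0.04 for Klrk1 (SE 0.59) and 0.00 for Gzmb (SE 0.43, 95% interval -0.97 to 0.96). For Klrd1 and Gzma 1 tumor carries much of the difference: without IgG1 replicate 1 Klrd1 had 0.18, and without IgG1 replicate 2 Gzma had 0.17. The other 6 genes did not pass the filter. The lowest adjusted p by limma was 0.996 and the lowest exact permutation p 0.4. Of the 4 genes tested 0 were called, 0 had an unadjusted p below 0.05 and 0 had groups that did not overlap, against 0%, 4.6% and 9.88% of the 13692 genes tested by limma.

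For PD-1 blockade during doxorubicin, DOX/anti-PD-1 tumors were set against DOX/IgG1 tumors. The log2 fold change was -2.21 for Gzma (SE 1.01, 95% interval -4.52 to 0.09), -1.25 for Klrb1c (SE 0.62), -0.24 for Klrk1 (SE 0.81) and 0.25 for Klrd1 (SE 1.10). The lowest exact permutation p was 0.2, for Klrb1c and Gzma, and the lowest adjusted p by limma was 0.988. Of the 6 genes tested 0 were called, 0 had an unadjusted p below 0.05 and 0 had groups that did not overlap, against 0%, 4.7% and 10.2% of the 13946 genes tested by limma. In other settings the unadjusted p of Gzma, 0.0580, went below 0.05, to 0.0443 with a pseudocount of 0.1, 0.0330 with all 12 tumors in 1 fit and 0.0136 with a replicate block, and that of Klrb1c went from 0.0779 to 0.0489 without a mean-variance trend; their adjusted p stayed at 0.738 or more there. The median was -0.30 over the 10 genes and -0.04 over all genes tested. This comparison shares the DOX/IgG1 tumors with that of DOX/IgG1 against IgG1. Without DOX/IgG1 replicate 1 Klrd1 turned to -1.21 (SE 0.51), Klrk1 had -1.15 (SE 0.56) and Gzma -2.95 (SE 1.00), and these 3 of the 6 genes tested no longer overlapped between the groups, against 24.7% of all genes, with none called (lowest adjusted p 0.583). Over all single tumors left out Gzma ran from -3.35 (unadjusted limma p 0.00395, adjusted p 0.968), without DOX/anti-PD-1 replicate 2, to -1.65. The -3.35 is against 2 tumors both listed at 0, so that group has no spread and the small unadjusted p cannot be read. Klrb1c ran from -1.73, without DOX/anti-PD-1 replicate 2, to -0.75, without DOX/anti-PD-1 replicate 1. Without DOX/IgG1 replicate 1 and DOX/anti-PD-1 replicate 3, Klrd1 had -1.56, Klrk1 -1.57 and Gzma -2.38, with a lowest adjusted p of 0.276, and 68 of all genes were called.

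Over both chemotherapy arms, anti-PD-1 against IgG1 gave a log2 fold change of -0.67 for Klrb1c (SE 0.51), -0.66 for Gzma (SE 0.75) and 0.64 for Klrd1 (SE 0.71). Without DOX/IgG1 replicate 1 these became -0.58, -0.81 and 0.03, without DOX/anti-PD-1 replicate 3 -0.61, -0.23 and 0.53, and without both -0.54, -0.41 and -0.01, so Klrd1 turned. The lowest exact permutation p was 0.265. Of the 7 genes tested 0 were called and 0 had an unadjusted p below 0.05, against 0% and 4.69% of all genes tested by limma. The interaction asks whether the difference with doxorubicin is another in anti-PD-1 tumors than in IgG1 tumors. It was -3.11 for Gzma (SE 1.32, 95% interval -5.95 to -0.27, unadjusted limma p 0.034, adjusted p 0.993), which is the difference between 1.90 with IgG1 and -1.21 with anti-PD-1. Of the 7 genes tested 0 were called and 1, Gzma, had an unadjusted p below 0.05, against 0.00679% and 4.71% of all genes tested. Without DOX/IgG1 replicate 1 the interaction of Gzma was -3.84 and without DOX/anti-PD-1 replicate 3 -2.54 (unadjusted limma p 0.0107 and 0.0865); over all single tumors left out it ran from -4.25 to -2.39. The median interaction was -0.57 over the 10 genes and -0.01 over all genes tested.

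**Figure D3:**
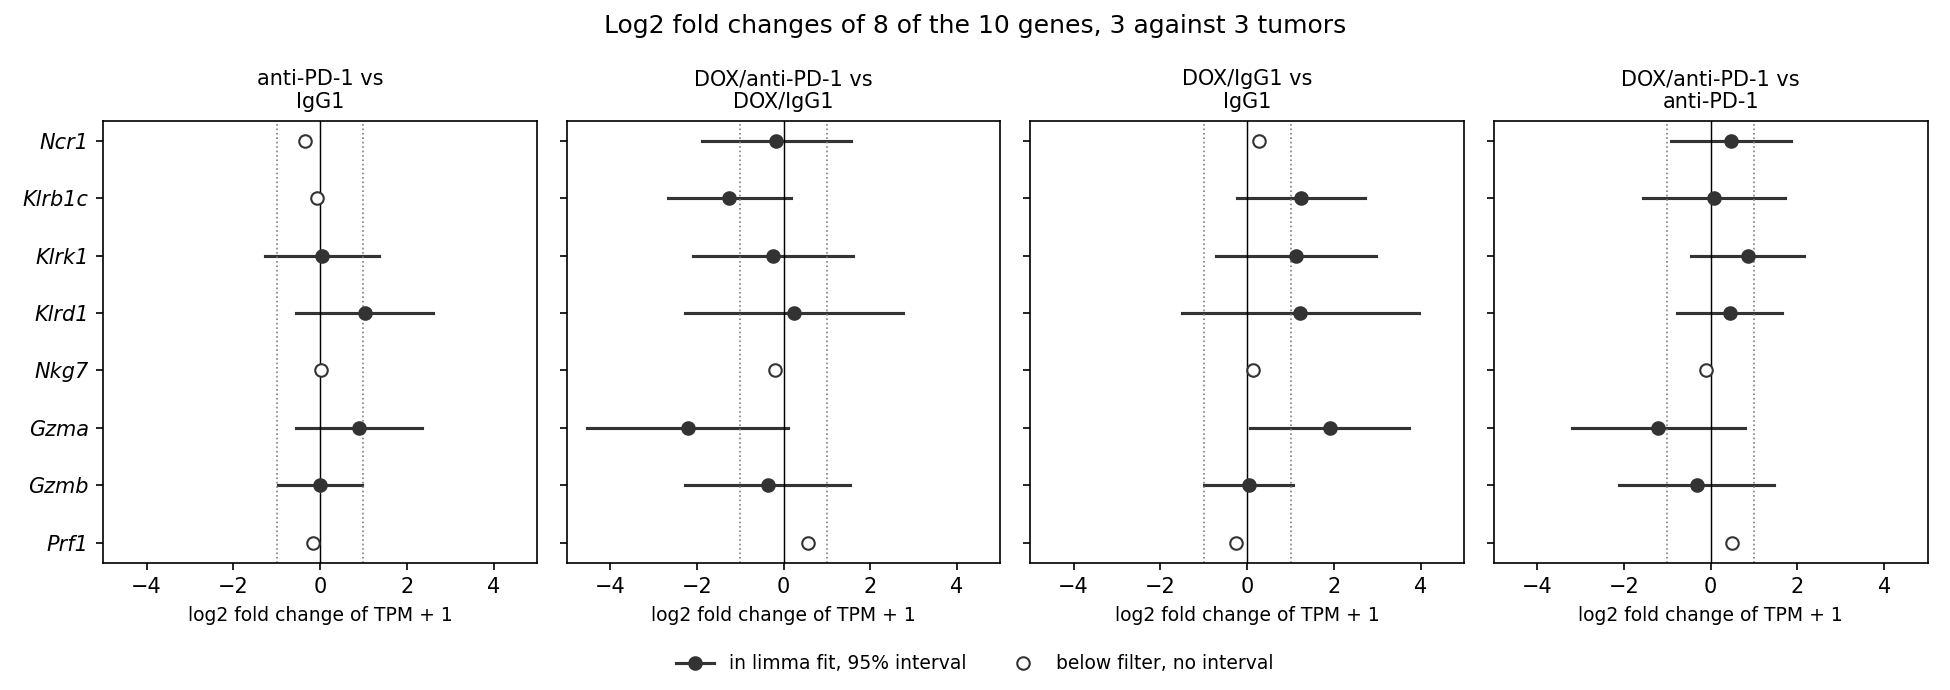
Log2 fold changes of TPM + 1 in the 4 comparisons of 3 tumors with 3, for the 8 of the 10 genes that are above 0 in at least 1 tumor of every group. Filled points with lines are genes in the limma fit with their 95% intervals, open points are genes below the filter, and dotted lines mark -1 and 1. Of the intervals drawn, that of Gzma between DOX/IgG1 and IgG1 is the 1 that lies to 1 side of 0.

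Markers of other cells were high in some of the same tumors. T cells share most of the 10 genes, and 12 of the 15 T cell markers listed were in the tables. They summed to 23.7, 21.2 and 10.4 TPM in the IgG1 tumors, 9.99, 16.2 and 10.2 TPM in the anti-PD-1 tumors, 9.92, 52.1 and 47.4 TPM in the DOX/IgG1 tumors and 21.6, 19.0 and 37.4 TPM in the DOX/anti-PD-1 tumors. DOX/IgG1 replicates 2 and 3 are the highest and DOX/IgG1 replicate 1 the lowest of the 12, as for the sum of the 10 genes. Cd3e, a chain of the T cell receptor complex and the most abundant of the list on average, had 0.88, 24.6 and 15.7 TPM in the DOX/IgG1 tumors. Cd8a had 1.16, 5.57 and 3.63 TPM there and 0 to 2.46 TPM in the other 9 tumors. Not all of the list follows this order: Cd8b1, the partner chain of Cd8a, had 1.54, 4.77 and 0.69 TPM in the DOX/IgG1 tumors and 2.76 TPM in IgG1 replicate 2, and Cd3d and Cd3g were highest in DOX/anti-PD-1 replicate 3 with 4.22 and 15.1 TPM. In anti-PD-1 replicate 1 the markers Cd3d, Cd3e, Cd6, Cd8a, Cd8b1 and Ctla4 are at 0 and the other 6 of the list are above it, among them Cd3g with 1.65 TPM, Cd4 with 1.03 TPM and Foxp3 with 2.69 TPM, the highest Foxp3 value of the 12. The part of T cells in the levels of the 10 genes was not tested.

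The leukocyte markers summed to 214, 176 and 255 TPM in the IgG1 tumors, 151, 206 and 138 TPM in the anti-PD-1 tumors, 130, 221 and 307 TPM in the DOX/IgG1 tumors and 155, 215 and 165 TPM in the DOX/anti-PD-1 tumors. DOX/IgG1 replicate 1 again has the lowest sum. The 5 stroma markers summed to 779, 835 and 1299 TPM in the IgG1 tumors, 628, 549 and 442 TPM in the anti-PD-1 tumors, 353, 1435 and 975 TPM in the DOX/IgG1 tumors and 747, 999 and 1143 TPM in the DOX/anti-PD-1 tumors, so DOX/IgG1 replicate 3 is not among the highest. Dcn, the most abundant of them in DOX/IgG1 replicates 2 and 3, had 76.8, 619 and 323 TPM in that group. The 7 macrophage markers, led by C1qa on average, ranged less, from 241 to 421 TPM, with 336, 411 and 402 TPM in the DOX/IgG1 tumors. B cell markers summed to at most 3.78 TPM and neutrophil markers to at most 14.2 TPM, with Ly6g at 0 in all 12. The mast cell list was led by Kit, which mammary epithelium also transcribes, and summed to between 325 and 780 TPM. Its other 4 members were low but for DOX/IgG1 replicate 2, where Cpa3, Cma1 and Tpsb2 had their highest values, 9.91, 14.5 and 6.39 TPM, and Mcpt4 had 10.5 TPM, against 10.7 TPM in DOX/anti-PD-1 replicate 3. The part of mast cells in the levels of the 10 genes was not tested.

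Markers of neighbouring tissues differed between tumors too. The salivary gland markers Bpifa2 and Smr3a are above 0 in all 3 DOX/IgG1 tumors, and in the other 9 tumors Bpifa2 is at 0; the list, led by Amy1 on average, summed to 52.1, 98.0 and 113 TPM in the DOX/IgG1 tumors and to at most 23.3 TPM elsewhere. Fat markers, led by Adipoq, reached 384 TPM in DOX/IgG1 replicate 2 and 476 TPM in DOX/anti-PD-1 replicate 1, against 163 TPM or less in the others. Skeletal muscle markers, led by Acta1, ranged from 0 in DOX/anti-PD-1 replicate 2 to 669 TPM in DOX/anti-PD-1 replicate 1. The part of these tissues in the levels of the 10 genes was not tested.

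**Figure D4:**
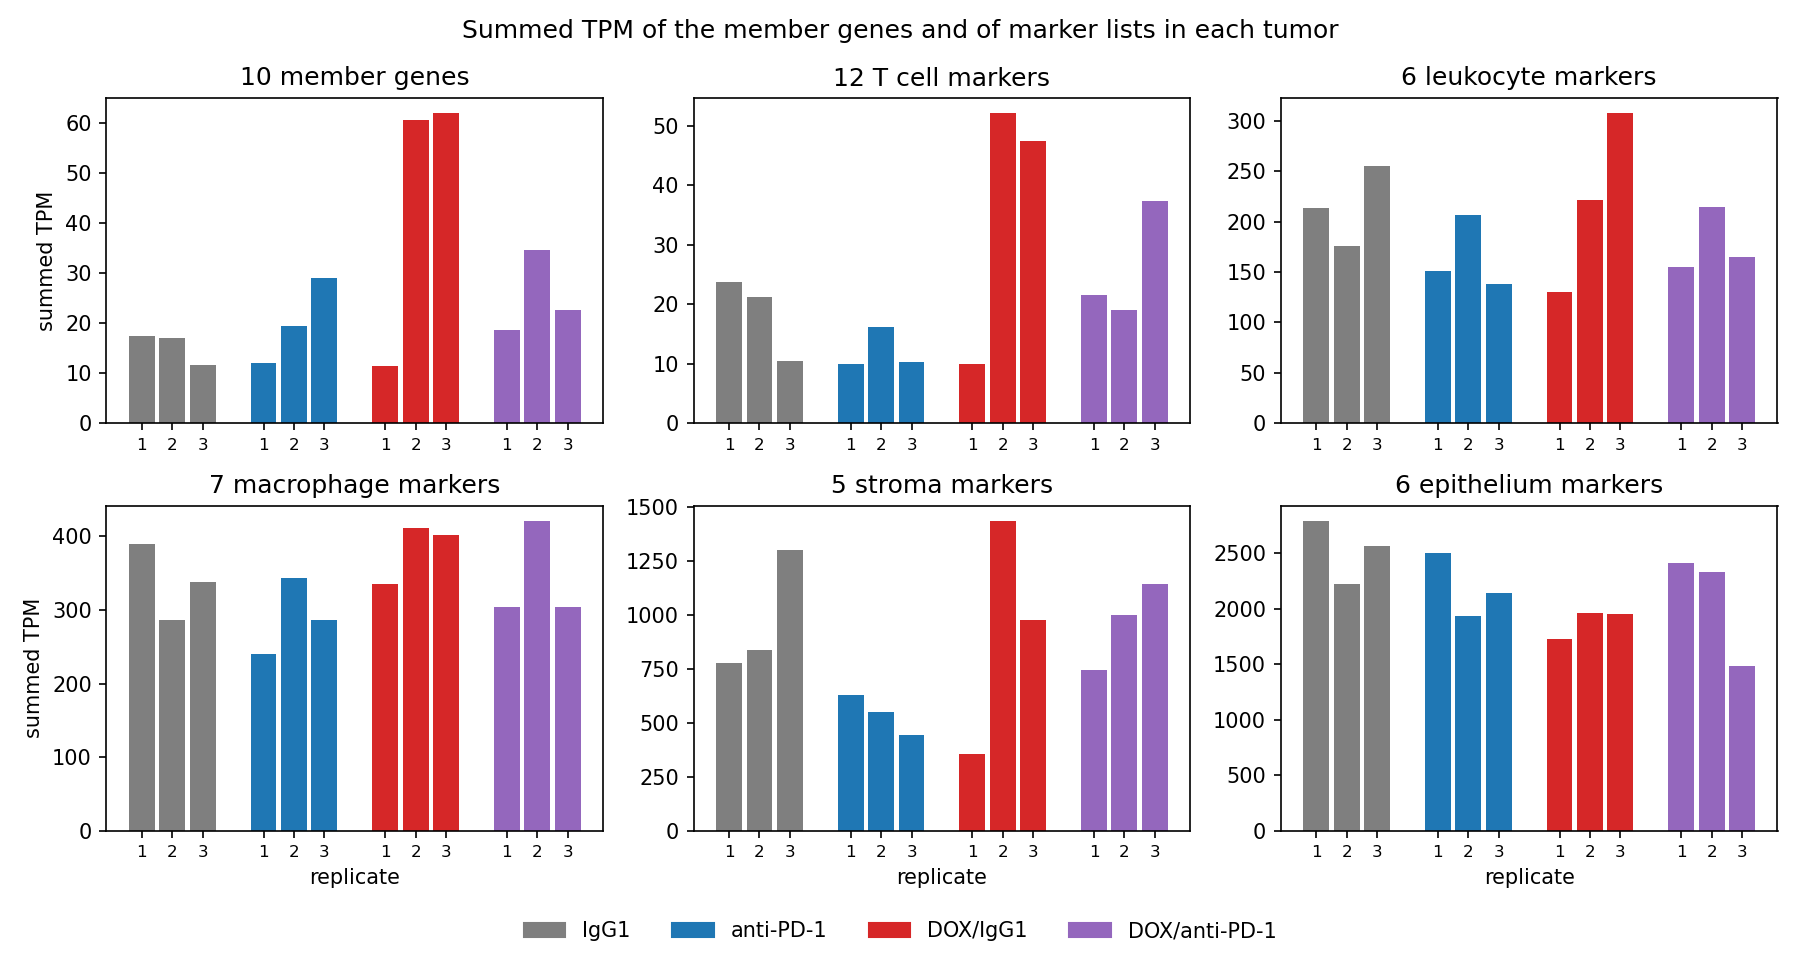
Summed TPM of the 10 NK and cytotoxic genes and of the markers of T cells, all leukocytes, macrophages, stroma and epithelium in each of the 12 tumors. Each bar is 1 tumor, numbered by replicate and colored by group, and each panel has its own vertical axis from 0. DOX/IgG1 replicates 2 and 3 stand highest for the 10 genes (60.7 and 61.9 TPM) and for the T cell markers (52.1 and 47.4 TPM), and replicate 1 of that group is lowest for both.

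A wider list of 126 genes of the same pathway was read alongside, and none of them was called by limma in any comparison. For the receptors and signalling, Fcgr3, an Fc receptor shared with macrophages, had the highest mean of the NK receptor list, 28.8 TPM, and Plcg2 the highest of the adaptors, 51.4 TPM. Between DOX/IgG1 and IgG1, 3 of 18 NK receptors (16.7%) had an unadjusted limma p below 0.05, Klra2 and Cd226 higher and Klra1 lower. So did 2 of 14 adaptors (14.3%), Cd247 and Lck, both higher, against 7.73% of all genes tested. With so few genes neither share can be told apart from that of all genes. The highest share of the 7 sublists was that of the interferon gamma targets, 7 of 12 (58.3%), 6 higher and 1 lower. The transcription factors, the cytokines and their receptors and the NKG2D ligands had 0. Cd226, which encodes the activating receptor DNAM-1, had 0, 0.43 and 2.4 TPM in the IgG1 tumors and 5.2, 7.75 and 6.81 TPM in the DOX/IgG1 tumors, a log2 fold change of 2.15 (SE 0.55, limma adjusted p 0.46). Cd247, the zeta chain used by the T cell receptor and by NKp46, had 4.55, 0 and 1.43 TPM in the IgG1 tumors and 9.28, 10.5 and 11.8 TPM in the DOX/IgG1 tumors, a log2 fold change of 2.27 (SE 0.62, limma adjusted p 0.469); the anti-PD-1 tumors had 9.37, 3.05 and 8.15 TPM. For both genes the 3 DOX/IgG1 tumors, replicate 1 included, lay above all 3 IgG1 tumors. In the DOX/anti-PD-1 tumors Cd226 had 1.57, 1.35 and 0 TPM and Cd247 2.3, 8.02 and 0 TPM, all below the DOX/IgG1 tumors.

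Klra1, a Ly49 receptor, went the other way. It had 3.15, 7.18 and 3.11 TPM in the IgG1 tumors, 3.87, 2.97 and 2.68 TPM in the anti-PD-1 tumors, 1.36, 0 and 2.4 TPM in the DOX/IgG1 tumors and 0, 1.9 and 1.02 TPM in the DOX/anti-PD-1 tumors. Each group with doxorubicin lay below its counterpart without, with a log2 fold change of -1.29 over both antibodies (SE 0.38, limma adjusted p 0.225). The Ly49 genes are near copies of each other, so reads may be shared between them. The partners of Klrd1 stayed low: Klrc1 ranged from 0 to 4.4 TPM and Klrc2 from 0 to 4.28 TPM. Hcst, the DAP10 adaptor of NKG2D, is listed at 0 in 7 tumors and was highest in DOX/IgG1 replicates 2 and 3 with 4.54 and 6.64 TPM, whereas Tyrobp, the DAP12 adaptor that macrophages also use, ranged from 7.31 to 36.6 TPM.

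In the granule list Lamp1, a lysosome protein of most cells, had the highest mean, 300.2 TPM, and among the other granzymes Gzmc reached 17.9 TPM in DOX/anti-PD-1 replicate 2 with 2 tumors at 0. Of the 13 granule genes tested between DOX/IgG1 and IgG1, 0 had an unadjusted p below 0.05, against 7.73% of all genes; with so few genes the 2 shares cannot be told apart. Id2 led the transcription factors with a mean of 118 TPM, and Tbx21, which encodes T-bet, ranged from 0 to 1.61 TPM. Raet1e led the 5 NKG2D ligands in the tables with a mean of 3.61 TPM, and its 4 groups overlap.

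Il6st led the cytokine and receptor list with a mean of 156 TPM and groups that overlap. Il18r1, a chain of the interleukin 18 receptor of NK cells and T cells, had 13.8, 9.36 and 6.54 TPM in the IgG1 tumors, 5.65, 5.4 and 6.46 TPM in the anti-PD-1 tumors, 5.23, 53.9 and 135.5 TPM in the DOX/IgG1 tumors and 29.0, 7.78 and 17.4 TPM in the DOX/anti-PD-1 tumors. Its log2 fold change with doxorubicin over both antibodies was 1.54 (SE 0.56, limma adjusted p 0.312), and the 2 tumors that are highest for Klrk1 and Klrd1 are also highest for Il18r1. Il2rb, the receptor chain shared by interleukins 2 and 15, had 0, 7.68 and 7.8 TPM in the DOX/IgG1 tumors and at most 3.73 TPM elsewhere. Ifngr1, the ligand-binding chain of the interferon gamma receptor, was named with Klra1 because its groups do not overlap in either doxorubicin comparison. Over all genes tested, 14% and 14.9% did not overlap in the single comparisons. The share without overlap in both was not counted, so these 2 genes cannot be set apart from the rest. Ifngr1 had 59.8 to 65.4 TPM in IgG1, 47.1 to 65.3 TPM in anti-PD-1, 66.6 to 114.9 TPM in DOX/IgG1 and 70.7 to 77.8 TPM in DOX/anti-PD-1 tumors, with a log2 fold change of 0.48 over both antibodies (SE 0.16, limma adjusted p 0.257). After scaling by the median of ratios its DOX/IgG1 and IgG1 groups overlap.

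Il2ra, Cd69 and Il27ra were read because the study dealt with them. Il2ra had 3.72, 2.15 and 6.89 TPM in the IgG1 tumors, 3.12, 1.81 and 2.33 TPM in the anti-PD-1 tumors, 0, 2.71 and 5.43 TPM in the DOX/IgG1 tumors and 0.41, 1.42 and 1.13 TPM in the DOX/anti-PD-1 tumors. Cd69 had 0, 0 and 0.83 TPM in the IgG1 tumors, 0, 1.64 and 0.89 TPM in the anti-PD-1 tumors, 1.35, 2.31 and 1.6 TPM in the DOX/IgG1 tumors and 2.22, 0.48 and 1.01 TPM in the DOX/anti-PD-1 tumors. The DOX/IgG1 tumors lay above the IgG1 tumors for Cd69 (log2 fold change 1.16, SE 0.52, limma adjusted p 0.653), whereas with anti-PD-1 present the 2 groups overlapped (0.31, SE 0.57). The DOX/IgG1 and IgG1 tumors overlapped for Il2ra (log2 fold change -0.77, SE 0.72), and the DOX/anti-PD-1 tumors below the anti-PD-1 tumors for Il2ra (log2 fold change -0.80, SE 0.46, limma adjusted p 0.651). Il27ra did not exceed 0.89 TPM in any tumor and passed the filter in no comparison.

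Among the target genes of interferon gamma, many of which also answer type I interferons, Gbp2, Cd274 and Cxcl9 had DOX/IgG1 and IgG1 groups that did not overlap, and none of the 3 was called by limma. Gbp2, a guanylate-binding protein, had 43.0, 33.0 and 41.2 TPM in the IgG1 tumors and 76.6, 68.2 and 62.9 TPM in the DOX/IgG1 tumors. Cd274, the gene of the PD-1 ligand PD-L1, had 2.88, 3.01 and 1.7 TPM in the IgG1 tumors and 4.91, 7.71 and 4.38 TPM in the DOX/IgG1 tumors. The chemokine gene Cxcl9 had 4.31, 9.82 and 6.78 TPM in the IgG1 tumors and 0, 2.29 and 3.45 TPM in the DOX/IgG1 tumors. Of the 12 targets tested, 8 did not overlap between these groups, 7 higher and 1 lower, which is 66.7% against 14% of all genes. After scaling by the median of ratios it was 6 of the 12. The 3 genes shown were picked after their values were seen.

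Over the whole wider list, 17 of the 90 genes tested between DOX/IgG1 and IgG1 did not overlap, 15 higher and 2 lower, and 12 had an unadjusted p below 0.05, 10 higher and 2 lower. That is 18.9% and 13.3%, against the 14% and 7.73% of all genes tested. The interferon gamma targets, 12 of the genes tested, make up 8 of the 17 and 7 of the 12. The excess over all genes is therefore not one of the whole list. Of all genes, 1292 were higher and 644 lower without overlap, and after scaling by the median of ratios 959 and 1024, so part of the excess of higher genes is shared by all genes. For DOX/anti-PD-1 against DOX/IgG1 it was 11 of 93 that did not overlap, all lower, and 10 with an unadjusted p below 0.05, all lower, which is 11.8% and 10.8% against 10.2% and 4.7% of all genes tested. Here 5 of the 11 and 5 of the 10 are interferon gamma targets, of which 13 were tested (38.5%). Between anti-PD-1 and IgG1 it was 4 of 83, all lower, with 3 at an unadjusted p below 0.05, 1 higher (Cd247) and 2 lower (Klrb1b and Ets1), which is 4.82% and 3.61% against 9.88% and 4.6%. For DOX/anti-PD-1 against anti-PD-1 it was 11 of 85, 8 higher and 3 lower, with 5 at an unadjusted p below 0.05, 3 higher and 2 lower, which is 12.9% and 5.88% against 14.9% and 8.63%. Without DOX/IgG1 replicate 1, 38 of the same 90 genes did not overlap between DOX/IgG1 and IgG1, 35 higher and 3 lower, among them Hcst, Il2rb, Il18r1 and Ccl5, and 36 of the same 93 did not overlap for DOX/anti-PD-1 against DOX/IgG1, 1 higher and 35 lower. With 2 tumors against 3 the shares of all genes that did not overlap were larger too, 32.6% and 24.7%. After scaling by the median of ratios, 13 of the 90 did not overlap between DOX/IgG1 and IgG1, 11 higher and 2 lower, 11 of the 93 for DOX/anti-PD-1 against DOX/IgG1, and 3 of the 83 between anti-PD-1 and IgG1, 1 higher and 2 lower.

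The genes most like the mean log2(TPM + 1) of the 10 over the 12 tumors, among 14728 other genes, were PVRIG with a Pearson's r of 0.957, Klra4 with 0.939, Eif4ebp3 with 0.938, Cyp4f39 with 0.928 and Klrc2 with 0.926. PVRIG, a checkpoint receptor of NK cells and T cells, had 0, 1.6 and 4.83 TPM in the DOX/IgG1 tumors, 2.3 TPM in DOX/anti-PD-1 replicate 2 and 0 to 1.08 TPM in the other 8 tumors. Klra4, another Ly49 receptor, had 0, 4.81 and 2.49 TPM in the DOX/IgG1 tumors and at most 1.32 TPM elsewhere. All 5 genes are low, with means between 0.56 and 1.01 TPM, and all 5 are at 0 in anti-PD-1 replicate 1, DOX/IgG1 replicate 1 and DOX/anti-PD-1 replicate 1. The points share the libraries, so the likeness also holds the detection of low genes in each of them.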

How the data were processed

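Total RNA of snap-frozen tumors was sequenced from stranded total RNA libraries. Reads had been aligned with STAR to mm10 and quantified with RSEM; versions are not given in the sources used here. The deposited values are log2(TPM + 1) by the authors, written with decimal commas; that they are TPM and not FPKM rests on the study's methods, and depth is unknown. Values were reversed to TPM. The members and lists were chosen with earlier results of these data known. Groups were compared with limma 3.58.1 in R 4.3.3 (lmFit, eBayes with trend, two-sided, Benjamini-Hochberg over all genes tested), pseudocount 1, since count tests could not be used on normalized values. Exact permutation tests were two-sided. The code was tested on simulated data. Genes were named by rule: the 10 members, the gene of highest mean in 6 of the wider lists, genes not overlapping in both doxorubicin comparisons, 4 genes of the study and the 5 most like the members; others were picked after their values were seen. Alternatives were a pseudocount of 0.1, no filter, median-of-ratios scaling, no trend, no fold limit, a replicate block, 1 fit over all 12 tumors, and leaving out tumors. The labels do not say that tumors of a group came from different mice, so p-values measure the spread between these tumors. Gene positions are from GENCODE on GRCm38.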

Additional observations from a re-analysis of the deposited data

How the results depend on the processing

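None of the 10 genes was called by limma in any comparison under any setting, though all 10 were tested only with no filter. The counts over all genes rest on few calls. Fold changes near 0 changed sign, and with a pseudocount of 0.1 many were larger, as for Gzma in DOX/IgG1 vs IgG1 (3.05) and in anti-PD-1 vs IgG1 (1.91). With a pseudocount of 0.1 the sign changed for Gzmb in anti-PD-1 vs IgG1 (0.00174), for Nkg7 and Gzma with doxorubicin over both antibodies (-0.28 and -0.0510), and for Klrk1 and Nkg7 with anti-PD-1 over both arms (0.0215 and 0.17). With median-of-ratios scaling it changed for Gzmb in anti-PD-1 vs IgG1 (0.0195) and DOX/IgG1 vs IgG1 (-0.0723), and for Nkg7 with doxorubicin over both antibodies (-0.0141). Gzma in DOX/IgG1 vs IgG1 had an unadjusted limma p of 0.0435, which became 0.0678 with a pseudocount of 0.1, 0.0529 with no filter, 0.0625 with scaling, 0.0510 without a mean-variance trend, 0.0679 with the replicate block and 0.0612 with all 12 tumors in 1 fit; without single tumors it ran from 0.00512 to 0.156.

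With tumors left out, signs changed in the following ranges for genes that passed the filter. In anti-PD-1 vs IgG1, Klrk1 ran from -0.45 to 0.40 and Gzmb from -0.30 to 0.25. In DOX/anti-PD-1 vs DOX/IgG1, Ncr1 ran from -0.68 to 0.49, Klrk1 from -1.57 to 0.31, Klrd1 from -1.56 to 1.06 and Gzmb from -1.16 to 0.61. In DOX/IgG1 vs IgG1, Gzmb ran from -0.26 to 0.27. In DOX/anti-PD-1 vs anti-PD-1, Klrb1c ran from -0.40 to 0.71 and Gzmb from -1.12 to 0.65. For doxorubicin over both antibodies, Nkg7 ran from -0.30 to 0.31, Gzma from -0.15 to 1.00 and Gzmb from -0.48 to 0.40. For anti-PD-1 over both arms, Ncr1 ran from -0.50 to 0.0180, Klrk1 from -0.60 to 0.16, Klrd1 from -0.00560 to 1.04, Nkg7 from -0.29 to 0.23 and Gzmb from -0.52 to 0.27. For the interaction, Ncr1 ran from -0.33 to 0.84, Klrk1 from -1.61 to 0.27, Klrd1 from -2.59 to 0.0631, Nkg7 from -0.78 to 0.45 and Gzmb from -1.16 to 0.62. Below the filter, signs changed for Ncr1 (-0.76 to 0.0178), Klrb1c (-0.72 to 0.57) and Nkg7 (-0.25 to 0.58) in anti-PD-1 vs IgG1, Ncr1 (-0.37 to 0.79) and Nkg7 (-0.55 to 0.69) in DOX/IgG1 vs IgG1, Nkg7 in DOX/anti-PD-1 vs DOX/IgG1 (-0.69 to 0.48) and DOX/anti-PD-1 vs anti-PD-1 (-0.58 to 0.14), and Prf1 with doxorubicin over both antibodies (-0.0543 to 0.36). The runs include leaving out DOX/IgG1 replicate 1 and DOX/anti-PD-1 replicate 3 together, chosen after seeing the data, as were the counts of groups that do not overlap under scaling and without DOX/IgG1 replicate 1. Under scaling these counts in the wider list went from 17 to 13 of 90 in DOX/IgG1 vs IgG1 (11 higher, 2 lower), stayed at 11 of 93 in DOX/anti-PD-1 vs DOX/IgG1 and went from 4 to 3 of 83 in anti-PD-1 vs IgG1 (1 higher, 2 lower), and over all genes they became 14.3%, 10.4% and 11%.

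A block for the replicate number left 0 of the 10 genes called in all 7 comparisons, and the calls over all genes went from 5 to 2 in DOX/IgG1 vs IgG1 and from 3 to 1 for doxorubicin over both antibodies. Correlations between tumors of the same number, after group means were taken out, were -0.0781, -0.0145 and -0.0963 in anti-PD-1 vs IgG1, 0.0219, -0.0688 and 0.0911 in DOX/anti-PD-1 vs DOX/IgG1, 0.125, 0.00339 and 0.106 in DOX/IgG1 vs IgG1, and 0.0521, 0.134 and -0.0563 in DOX/anti-PD-1 vs anti-PD-1. Tumors of different numbers were not correlated for comparison, so these values do not settle whether the numbers pair the tumors. The calls over all genes depended on the settings: without a mean-variance trend they were 13 in DOX/IgG1 vs IgG1 and 0 for doxorubicin over both antibodies, and with scaling 14 for the latter. With a pseudocount of 0.1 the median of the 10 genes in DOX/IgG1 vs IgG1 was 1.40.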

Other observations

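The following genes of the wider list were picked after their values were seen, and limma called none of them. Lck, the kinase that starts T cell receptor signalling and is also present in NK cells, had 1.81, 5.51 and 1.43 TPM in the IgG1 tumors, 3.43, 3.79 and 1.1 TPM in the anti-PD-1 tumors, 9.25, 8.6 and 5.51 TPM in the DOX/IgG1 tumors and 5.09, 10.8 and 3.82 TPM in the DOX/anti-PD-1 tumors. Its log2 fold change with doxorubicin over both antibodies was 1.14 (SE 0.35, limma adjusted p 0.241), and its DOX/IgG1 and IgG1 groups meet at 5.51 TPM. DOX/IgG1 replicate 1, which is low for Klrk1, Klrd1 and Cd3e, has the second highest Lck value of the 12.

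Klrb1b, a relative of Klrb1c that encodes an inhibitory receptor, had 13.4, 3.51 and 7.26 TPM in the IgG1 tumors, 0, 2.18 and 1.85 TPM in the anti-PD-1 tumors, 1.62, 4.77 and 10.5 TPM in the DOX/IgG1 tumors and 6.49, 3.44 and 0 TPM in the DOX/anti-PD-1 tumors. The anti-PD-1 tumors lay below the IgG1 tumors (log2 fold change -1.96, SE 0.58, limma adjusted p 0.996). Reads may be shared between Klrb1b and its relatives. Slamf7, a receptor of NK cells and of other leukocytes, had 14.3, 21.4 and 32.6 TPM in the DOX/IgG1 tumors and between 7.78 and 18.9 TPM in the other 9, and the DOX/IgG1 tumors overlap the IgG1 and the DOX/anti-PD-1 tumors.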
